A study of Mus musculus with 6 samples.

Results

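The caspases and apoptosome genes described here are 8 mouse genes chosen by symbol: the caspases *Casp2*, *Casp6*, *Casp8* and *Casp9*, the apoptosome components *Apaf1* and *Cycs*, the caspase inhibitor *Xiap* and its antagonist *Diablo*. All 8 were found among the 53465 Ensembl genes of the count table. The RNA came from 6 pools of oocytes at the M II stage, taken from naturally aged Kunming (KM) mice, females of 9 to 10 months, matured in vitro for 16 h. In the 3 control pools, the controls, the medium held no quercetin, and in the 3 quercetin pools, the treated pools, it held 10 μM of this plant flavonol, which the authors dissolved in DMSO. Whether the control medium held DMSO is not given in the sources used here. Each pool combined 15 oocytes of 3 mice, so a value describes a pool and not an oocyte, and whether control and quercetin pools drew on the same mice is not given in the sources used here. The p-values set a difference between the groups against the spread between these pools. In edgeR's test, described below, that spread is estimated in part from all tested genes.

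In the mitochondrial route of apoptosis, cytochrome c leaves the space between the mitochondrial membranes and binds APAF1, which assembles into a wheel-shaped platform, the apoptosome. Caspase-9 is recruited to this platform through its CARD domain, becomes active and cleaves the executioner caspases. XIAP binds caspase-9 and holds it inactive, and DIABLO, also called SMAC, is released from mitochondria together with cytochrome c and displaces XIAP. The study also followed apoptosis in oocytes by staining, which was not analysed here, and the comparison below asks how the transcripts of the pathway differed with quercetin.

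Summed over all genes, the libraries of the controls came to 8671210, 7880467 and 8905681 counts, those of the treated pools to 8465142, 9938743 and 8109613. Levels are given in CPM, counts scaled to a common library size, which TMM, edgeR's scaling method, corrected for composition. A gene with 3 counts lay between 0.329 and 0.376 CPM in these pools. Reads were amplified and carry no molecular identifiers, so this floor and the count intervals below cover counting error only. The labelled cell type was checked against 10 oocyte markers, all detected, whose summed level was 16079, 19975 and 17608 CPM in the controls against 17644, 19345 and 18868 CPM in the treated pools. Per kb of exon *Oosp1* was the most abundant of them, at a mean of 6163 CPM per kb, above *Gdf9* at 3074. The zona pellucida genes *Zp1*, *Zp2* and *Zp3* were lowest in replicate 1 within both groups, and *Zp2* ran from 131 to 1560 CPM over the 6 pools. *Ooep* was the only oocyte marker with an unadjusted p under 0.05 in edgeR's quasi-likelihood test, described below, with an unadjusted p of 0.0412 and a log2 fold change of -0.92. For *Gdf9* every treated pool was above every control with TMM, as for 5.42% of all tested genes, but the groups overlapped by library size only. The part of these marker differences in the results below was not tested.

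Among 12 cumulus and granulosa markers, *Amh*, *Foxl2* and *Ptx3* were at 0 counts in every pool, which allows each of them up to 0.376 CPM in a pool at the floor of 3 counts. Their summed level was 76.8, 62.8 and 78.5 CPM in the controls against 85.2, 84.9 and 79.8 CPM in the treated pools, most of it *Cyp19a1*. With TMM every treated pool was above every control for this sum, which overlapped by library size only. The treated pools of *Cyp19a1* lay above the controls with both scalings, as did those of *Tnfaip6*. With TMM this held for 5.42% of all tested genes. The authors stripped the oocytes of cumulus cells by pipetting before culture, and the part of such cells in the differences below was not tested. *Tnfaip6* had no counts in the controls against 2, 8 and 4 in the treated pools. Without *Cyp19a1* the sum lay between 4.33 and 11.2 CPM over the 6 pools. The 6 leukocyte markers summed to between 3.26 and 4.24 CPM, most of it *Cd68*, with *Cd3e* and *Cd79a* at 0. Of the 5 erythroid markers, all but *Alas2* were at 0.

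Quercetin and control pools were compared across the 11842 genes that passed edgeR's filter on low counts, which asks for roughly 10 counts in 3 or more pools. The test was edgeR's quasi-likelihood test, and p-values were adjusted after Benjamini and Hochberg. The study's call criteria, adjusted p below 0.05 together with more than 2-fold change, were met by 0 of 11842 genes (0%), and the smallest adjusted p in this edgeR test was 0.0730. By the same criteria DESeq2 called 12 genes, edgeR's likelihood ratio test 16 and limma-voom 0, and with a pool left out edgeR called between 0 and 7. None of the 8 caspase and apoptosome genes had an adjusted p under 0.05 in any of these fits, DESeq2 giving none for *Casp9* and *Casp2*. Without adjustment, 477 genes (4.03%) had a p under 0.05, with 224 lower (1.89%) and 253 higher (2.14%) in the treated pools. Scaled by library size only the split was 362 lower and 145 higher, and the total was 241 without control replicate 2 and 1563 without quercetin replicate 3. Of the 8 caspase and apoptosome genes, 7 passed the filter and 1, *Casp6*, did not. Among the 7, only *Casp9* had an unadjusted p under 0.05, and it was lower. With TMM, *Casp9* was also the only one whose treated pools all lay below the controls, as 612 of the 11842 genes did (5.17%). By library size only *Xiap* joined it, and the share of all tested genes with that scaling was not counted. None of the 7 had all treated pools above, as 642 genes did (5.42%). The median log2 fold change was 0.18 over the 7 genes and -0.026 over all tested genes, where a log2 fold change is always quercetin over control.

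Levels of different genes were compared per kilobase of annotated exon. In this scale *Diablo* was highest, with a mean of 16.5 CPM per kb over the 6 pools, followed by *Cycs* (11.8), *Apaf1* (8.24) and *Casp8* (5.21). *Xiap* (1.83), *Casp9* (0.704), *Casp2* (0.655) and *Casp6* (0.165) were lower. The order from *Diablo* down to *Casp9* was the same in each of the 6 pools, taking the counts as assigned, although *Diablo* overlaps other genes and *Cycs* shares sequence with copies, as given below. Only between *Casp8* and *Xiap* was there a gap that no pool crossed, with *Casp8* between 4.58 and 5.79 CPM per kb and *Xiap* between 1.39 and 2.18. *Casp9* and *Casp2* could not be ordered, since *Casp9* was higher in control replicates 2 and 3 and *Casp2* in the other 4 pools. *Apaf1*, *Cycs* and *Diablo* thus lay above *Casp9*, the caspase that the platform recruits, in each of the 6 pools.

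**Figure D1:**
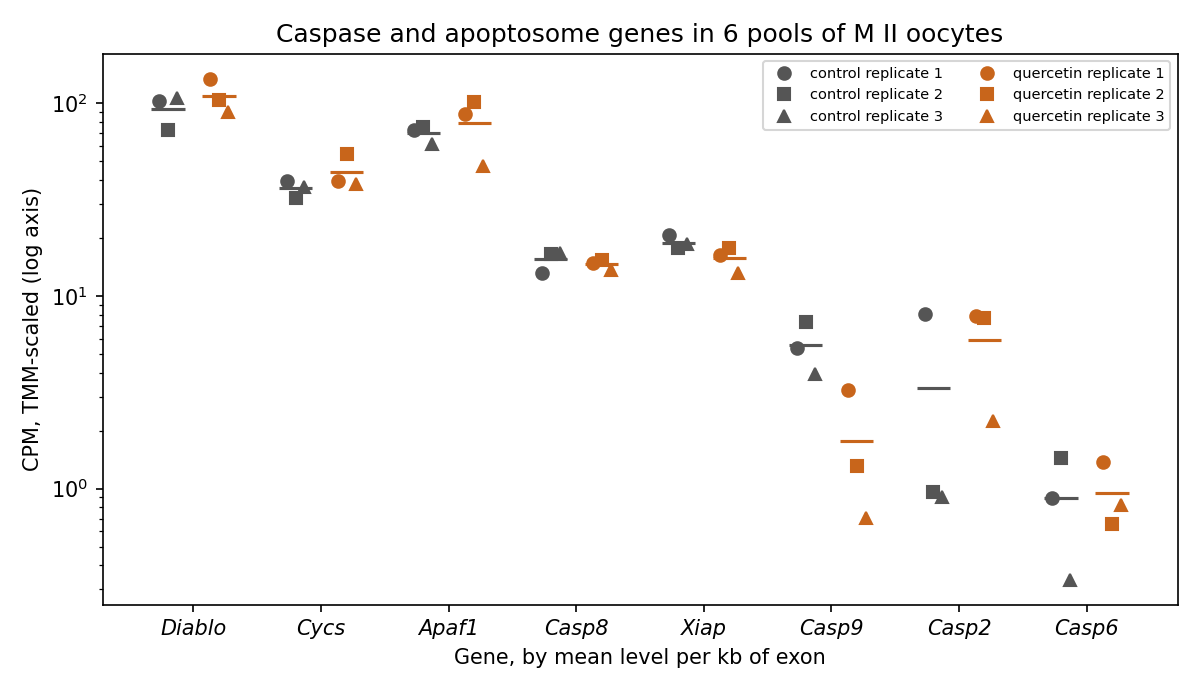
CPM scaled by TMM (log axis) of the 8 caspase and apoptosome genes in each pool, ordered by mean level per kb of exon, with control pools in grey, quercetin pools in orange, symbols for the replicates and bars for the mean of 3 pools. The 3 quercetin pools of *Casp9* lie below its 3 control pools, *Casp2* runs from 0.900 to 8.08 CPM, and the pools of the other 6 genes overlap between the groups.

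*Casp9* encodes the initiator caspase of the apoptosome. It had 48, 61 and 35 counts in the controls against 26, 12 and 6 in the treated pools, or 5.39, 7.33 and 3.94 CPM against 3.26, 1.32 and 0.706 CPM. Every quercetin pool was below every control pool, with quercetin replicate 1 close under control replicate 3. The means were 5.55 ± 1.70 and 1.76 ± 1.33 CPM (SD, n = 3, p = 0.1 by two-sided exact permutation, the least that 3 pools against 3 can reach). The log2 fold change was -1.66 (standard error 0.51, 95% interval from -2.82 to -0.50). Its unadjusted p was 0.0100, rank 78 among the 11842 genes, and it was 0.988 after Benjamini-Hochberg adjustment of edgeR's quasi-likelihood p. Of the tested genes 17, *Casp9* included, had a log2 fold change this low or lower. The SD of *Casp9* log2 CPM within the groups was 0.655, higher than in 90.8% of tested genes, whose median was 0.305.

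Counting error alone gave 95% exact Poisson intervals of 24.4 to 48.7 counts in control replicate 3 and 17.0 to 38.1 in quercetin replicate 1, which overlap. Quercetin replicate 2, the library with the most counts, held 12 (6.20 to 21.0) and quercetin replicate 3 held 6 (2.20 to 13.1). Without quercetin replicate 1 the log2 fold change of *Casp9* was -2.43, and without quercetin replicate 3 it was -1.29, the extremes when a pool was left out. *Casp9* was singled out with earlier results of these pools known, so its direction is not independent evidence. The 13 mitochondrially encoded protein genes took 2.77%, 2.59% and 2.23% of all counts in the controls against 2.09%, 2.00% and 1.86% in the treated pools (2.53% ± 0.272 and 1.98% ± 0.114, SD, n = 3, p = 0.1 by two-sided exact permutation). This share was also lower in every treated pool, and its part in the *Casp9* difference was not tested. In pooled material, fewer cells with a transcript and less of it per cell cannot be told apart.

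*Casp9* (ENSMUSG00000028914) spans chromosome 4 from 141793612 to 141815976 on the plus strand of GRCm38. Its exons add to 5197 bases in 6 annotated transcripts. Of these bases, 1.81% overlap *Cela2a* and *Ctrc* on the other strand, and those genes had at most 14 and 0 counts in any pool. Only 0.0380% of its 31-base words occur in a transcript of another gene. The qPCR primers listed for it matched 4 of the 6 transcripts and no transcript of another gene, so the other 2 can add to the sequencing counts and not to the product of these primers. The product of 94 bases is coding sequence within exon 2, on chromosome 4 from 141796605 to 141796698 (GRCm38, plus strand). It is shown because it is the part of the transcript that the listed primers read, in a measurement not analysed here, with capitals at the ends where the primers lie:
Casp9 qPCR product: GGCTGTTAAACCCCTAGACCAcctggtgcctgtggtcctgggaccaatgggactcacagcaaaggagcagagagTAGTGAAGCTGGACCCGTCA

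*Apaf1* (ENSMUSG00000019979, chromosome 10 from 90989311 to 91082770) encodes the scaffold of the apoptosome. Its counts were 648, 626 and 548 in the controls against 702, 924 and 403 in the treated pools, or 72.7, 75.3 and 61.7 CPM against 87.9, 101 and 47.4 CPM. The quercetin pools lay on either side of the control pools, with replicates 1 and 2 above them and replicate 3 below them. The log2 fold change of 0.18 (standard error 0.26, 95% interval from -0.42 to 0.77) was within the spread of the pools (adjusted p = 0.988 after Benjamini-Hochberg adjustment of edgeR's quasi-likelihood p). It rested on single treated pools, being -0.044 without quercetin replicate 2 and 0.44 without quercetin replicate 3, where the unadjusted p was 0.0259.

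*Cycs* (ENSMUSG00000063694, chromosome 6 from 50562563 to 50566538) encodes somatic cytochrome c. It had 354, 269 and 326 counts in the controls against 316, 496 and 326 in the treated pools, or 39.7, 32.3 and 36.7 CPM against 39.6, 54.4 and 38.4 CPM. Quercetin replicate 2 stood above the other 5 pools, which overlapped. The log2 fold change was 0.28 (standard error 0.20, 95% interval from -0.17 to 0.74). With a pool left out it ran from 0.11 (without quercetin replicate 2) to 0.38 (without quercetin replicate 3).

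Of the 31-base words of *Cycs* transcripts, 29.2% also occur in transcripts of other genes, so its reads can be split. *Gm10053*, a copy annotated as protein coding that shares 26.2% of these words, held 776, 706 and 835 counts in the controls against 682, 1052 and 667 in the treated pools, more than *Cycs* itself in every pool. *Cycs* and the 5 *Gm* genes that share most sequence with it were therefore also summed. The sum was 135 ± 7.44 CPM in the controls against 148 ± 30.7 CPM in the treated pools (SD, n = 3, p = 0.9 by two-sided exact permutation). The groups overlapped for the sum as they did for *Cycs* alone. *Cycs* made up 29.0%, 25.5% and 25.9% of the summed counts in the controls against 29.4%, 29.7% and 30.4% in the treated pools. Every treated pool was above every control, with quercetin replicate 1 close above control replicate 1. This difference was seen afterwards and not tested.

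*Xiap* (ENSMUSG00000025860, chromosome X from 42059679 to 42109656) encodes the inhibitor that binds caspase-9 directly. It had 184, 147 and 165 counts in the controls against 131, 162 and 112 in the treated pools, or 20.6, 17.7 and 18.6 CPM against 16.4, 17.8 and 13.2 CPM. Quercetin replicate 2 lay just above the lowest control pool, and the other 2 quercetin pools lay below all controls. This gave a log2 fold change of -0.26 (standard error 0.21, 95% interval from -0.74 to 0.21, adjusted p = 0.988 after Benjamini-Hochberg adjustment of edgeR's quasi-likelihood p). By library size only, without TMM, the quercetin pools were all below the control pools. With that scaling the median log2 fold change over all tested genes was -0.11, against -0.026 with TMM. The share of all tested genes below in this way was not counted.

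*Diablo* (ENSMUSG00000029433, chromosome 5 from 123509765 to 123524176) encodes the mitochondrial antagonist of XIAP. It had 913, 604 and 952 counts in the controls against 1068, 954 and 766 in the treated pools, or 102, 72.6 and 107 CPM against 134, 105 and 90.2 CPM. The groups overlapped, with control replicate 2 lowest and quercetin replicate 1 highest. Its log2 fold change was 0.22 (standard error 0.21, 95% interval from -0.25 to 0.69). With a pool left out it ran from 0.051 (without quercetin replicate 1) to 0.34 (without quercetin replicate 3). The level of *Diablo* is uncertain, because 40.9% of its exon length overlaps other genes. *B3gnt4* on the other strand covers 21.5% and held between 456 and 755 counts, and the same-strand *Gm49027* covers 19.3% and was at 0 in every pool. Whether counting used the strand is not given in the sources used here, so reads from these stretches cannot be told apart.

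*Casp8* (ENSMUSG00000026029, chromosome 1 from 58795374 to 58847503) encodes the initiator caspase that death receptors activate through FADD. Its counts of 118, 138 and 149 in the controls against 119, 140 and 116 in the treated pools were the most even of the 8 genes, with 13.2, 16.6 and 16.8 CPM against 14.9, 15.4 and 13.7 CPM. The groups overlapped, and the highest pool had 1.27 times the CPM of the lowest. The 95% interval of its log2 fold change of -0.085 (standard error 0.21) ran from -0.55 to 0.38. Other genes share 8.36% of its 31-base words, mostly the pseudogene *Gm20257*, which had at most 2 counts in any pool.

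*Casp2* (ENSMUSG00000029863, chromosome 6 from 42264985 to 42282508) encodes the initiator caspase of the PIDDosome, and is known for its part in the death of oocytes in the mouse ovary. It had 72, 8 and 8 counts in the controls against 63, 70 and 19 in the treated pools, or 8.08, 0.962 and 0.900 CPM against 7.89, 7.68 and 2.24 CPM. Control replicate 1 and quercetin replicates 1 and 2 were high and alike, control replicates 2 and 3 were low, and quercetin replicate 3 lay between them. The SD of *Casp2* log2 CPM within the groups was 1.24, higher than in 98.8% of tested genes, whose median was 0.305. The log2 fold change of 0.83 (standard error 0.80, 95% interval from -0.98 to 2.64) was within this spread (adjusted p = 0.988 after Benjamini-Hochberg adjustment of edgeR's quasi-likelihood p). Without control replicate 1 it was 2.66, with an unadjusted p of 0.00295.

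*Casp6* (ENSMUSG00000027997, chromosome 3 from 129901425 to 129914103) encodes an executioner caspase whose known substrates include nuclear lamins. It had 8, 12 and 3 counts in the controls against 11, 6 and 7 in the treated pools, too few to pass the filter. The means were 0.893 ± 0.553 and 0.953 ± 0.377 CPM (SD, n = 3, p = 1 by two-sided exact permutation). When every gene with at least 1 count was kept, its log2 fold change was 0.11 (standard error 0.61). In the fits with a pool left out where it passed the filter, the direction turned. It was -0.29 without control replicate 3 and up to 0.30 otherwise, without quercetin replicate 2. The groups overlapped, with control replicates 2 and 3 the highest and the lowest pool.

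Because caspase-9 acts on the APAF1 platform and is held by XIAP, counts of *Casp9* were set against those of both genes within each pool, which removes library size. *Casp9* had 7.41%, 9.74% and 6.39% of the *Apaf1* counts in the controls against 3.70%, 1.30% and 1.49% in the treated pools. It had 26.1%, 41.5% and 21.2% of the *Xiap* counts in the controls against 19.8%, 7.41% and 5.36% in the treated pools. The difference in mean log2 ratio, quercetin minus control, was -1.95 for *Apaf1* and -1.57 for *Xiap*, and the groups did not overlap in either (p = 0.1 by two-sided exact permutation in both, again the least possible). Both ratios in part restate the levels of *Casp9* itself, since the groups separated in all 7 pairs with *Casp9* and in 2 of the 21 pairs without it (10.6% of all tested genes separated in their own levels). The 2 were *Xiap* to *Cycs* and *Diablo* to *Xiap*, singled out after their values were seen and not tested. *Diablo* had 4.96, 4.11 and 5.77 times the counts of *Xiap* in the controls against 8.15, 5.89 and 6.84 times in the treated pools.

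The 3 tested genes whose profile over the 6 pools was nearest to that of *Casp9* were *Gucy2e*, *Rn7s1* and *Stxbp5*. Nearness was the root mean square difference of centred log2 CPM among 7931 tested genes of at least 5 CPM, and was 0.387, 0.453 and 0.484 for these genes. *Stxbp5*, which encodes a syntaxin-binding protein, had 963, 796 and 918 counts in the controls against 663, 498 and 347 in the treated pools. *Gucy2e*, a retinal guanylate cyclase gene, had 130, 132 and 107 against 101, 75 and 33. *Rn7s1* is a copy of the signal recognition particle RNA, whose reads can be split among copies, with 482, 392 and 256 counts against 174, 211 and 115. All 3 were lower in the quercetin means, as the choice by profile fixes. Among the other 6 tested caspase and apoptosome genes, which leaves out *Casp6*, the nearest to *Casp9* was *Xiap*, at 0.809, and the farthest was *Casp2*, at 1.64.

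A further 48 genes of the pathway, listed by role, were read from the same test, and 24 of them passed the filter. In edgeR's quasi-likelihood test *Birc3* was the only one of the 24 with an unadjusted p under 0.05, and it was higher (2.14% of all tested genes), while none was lower (1.89% of all tested genes). Of the 24, 6 had a positive and 18 a negative log2 fold change, with a median of -0.097. Over all tested genes 5490 were positive and 6352 negative, with a median of -0.026. With TMM all treated pools lay above all controls for *Birc2*, *Birc3* and *Cse1l* (5.42% of all tested genes), and below for *Cyct*, *Hccs* and *Tnfsf10* (5.17% of all tested genes). By library size only they were also below for *Acin1*, and the share of all tested genes with that scaling was not counted.

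Of the list of other caspases, *Casp1*, an inflammatory caspase, had the highest mean level per kb, at 0.332 CPM per kb, and was under the filter. It had 0, 2 and 2 counts in the controls against 0, 9 and 13 in the treated pools. The groups overlapped, since replicate 1 of both was at 0. *Casp4* was counted in 1 pool only, and *Casp12* and *Casp14* were at 0 in every pool.

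Of the 9 other inhibitor of apoptosis genes, 5 were tested, 2 with a positive and 3 with a negative log2 fold change. *Birc3*, which encodes the ubiquitin ligase cIAP2, had the highest level per kb of all these pathway genes, at 206 CPM per kb in the controls against 272 in the treated pools. It had 9050, 8713 and 9193 counts in the controls against 10844, 13177 and 10841 in the treated pools, or 1032 ± 16.1 and 1360 ± 84.7 CPM (SD, n = 3, p = 0.1 by two-sided exact permutation). The groups were well apart and the control pools almost equal. The log2 fold change was 0.40 (standard error 0.13, 95% interval from 0.11 to 0.68, unadjusted p = 0.0114, adjusted p = 0.988 after Benjamini-Hochberg adjustment of edgeR's quasi-likelihood p). Other genes share 11.3% of its 31-base words.

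*Birc2*, the neighbouring gene for cIAP1, had 152, 158 and 169 counts in the controls against 174, 265 and 189 in the treated pools, and the log2 fold change was 0.41 (standard error 0.20, 95% interval from -0.051 to 0.87). Its pools did not overlap, and its unadjusted p of 0.0753 missed the threshold. *Birc5*, which encodes survivin of the chromosomal passenger complex, was at 215 ± 18.7 and 213 ± 31.8 CPM (SD, n = 3), and its log2 fold change was -0.016 (95% interval from -0.37 to 0.33). *Birc7* was at 0, and *Naip2*, *Naip5* and *Naip6* had at most 3 counts in any pool, and these *Naip* genes share between 32.7% and 52.6% of their 31-base words with other genes.

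Of 7 genes for other mitochondrial death factors and cytochrome c, 5 were tested, 2 with a positive and 3 with a negative log2 fold change, and none had an unadjusted p under 0.05. *Cyct*, known as the testis form of cytochrome c, had the highest mean level per kb among them over the 6 pools (7.83 CPM per kb), next to *Htra2* (7.31), which encodes a protease that also antagonises XIAP. The order of these genes differed between the groups, with *Cyct* at 8.70 and *Htra2* at 6.64 CPM per kb in the controls against 6.95 and 7.99 in the treated pools. *Cyct* had 51, 44 and 54 counts in the controls against 37, 48 and 32 in the treated pools, and the log2 fold change was -0.32 (95% interval from -0.92 to 0.28). *Htra2* had 210, 159 and 142 against 201, 220 and 181 counts, and 43.7% of its exon length overlaps *Aup1* and *Loxl3* on the other strand. *Hccs*, which encodes the enzyme that joins heme to cytochrome c, had 78, 73 and 86 against 58, 78 and 67 counts, a log2 fold change of -0.20 (95% interval from -0.70 to 0.31).

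Of 6 regulators of apoptosome assembly, 5 were tested, 1 with a positive and 4 with a negative log2 fold change. *Apip*, whose product was described as an inhibitor of APAF1, was highest per kb and had 72.7 ± 10.3 and 63.8 ± 7.72 CPM (SD, n = 3), with a 95% interval of the log2 fold change from -0.59 to 0.21. *Cse1l*, a nuclear export factor that aids APAF1 in assembling, had 269, 212 and 241 counts in the controls against 275, 378 and 288 in the treated pools. Its log2 fold change of 0.41 (standard error 0.19) had an unadjusted p of 0.0558. For *Ptma*, which encodes prothymosin alpha, quercetin replicate 2 held 14 counts and the other pools between 74 and 112, and 31.1% of its 31-base words occur in other genes.

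Of 12 genes of the caspase-2 and caspase-8 platforms, 4 were tested, 1 with a positive and 3 with a negative log2 fold change. *Cradd*, the adapter between caspase-2 and PIDD1, was highest per kb among them, at 8.39 ± 0.661 and 8.34 ± 1.46 CPM (SD, n = 3), and its log2 fold change was -0.0086 (95% interval from -0.56 to 0.54). Its partner *Pidd1* had at most 4 counts in any pool, and *Fadd*, the adapter of caspase-8, had at most 11. The death receptor gene *Fas*, named here after its values were seen, had 0, 4 and 1 counts in the controls against 6, 12 and 5 in the treated pools. It was near the floor and under the filter, so the main test left it out. *Tnfsf10*, which encodes the death ligand TRAIL, had 14, 16 and 20 counts in the controls against 12, 9 and 8 in the treated pools. All its treated pools lay below its controls (5.17% of all tested genes), with a log2 fold change of -0.74 (standard error 0.40, 95% interval from -1.65 to 0.17).

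All 5 tested genes among 8 caspase substrates and execution factors had log2 fold changes between -0.22 and -0.044, with no unadjusted p under 0.05, where 6352 of the 11842 tested genes were negative. *Rock1*, a kinase that caspases cleave when cells bleb, was the most abundant per kb, at 1023 ± 153 and 992 ± 72.6 CPM (SD, n = 3). The nuclease gene *Dffb* and its inhibitor *Dffa* had at most 9 and 6 counts in any pool.

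**Figure D2:**
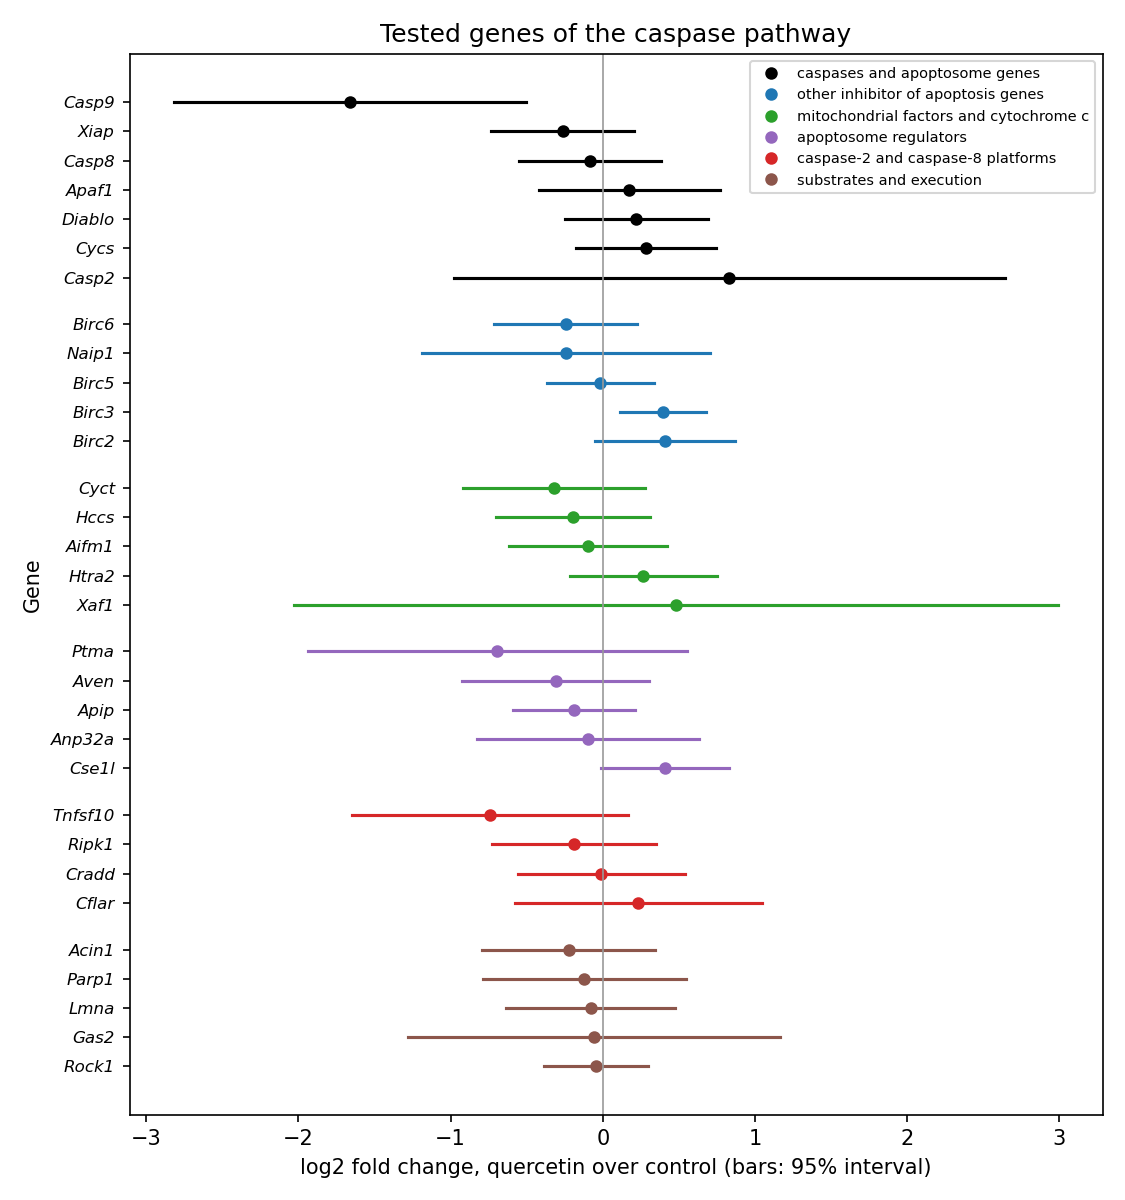
Log2 fold change of quercetin over control (horizontal axis, points) with its 95% interval (bars) for the 7 tested caspase and apoptosome genes and the 24 tested genes of the other pathway lists, in edgeR's quasi-likelihood fit of 3 pools against 3. The intervals of *Casp9*, on the left, and *Birc3*, on the right, lie clear of 0, and those of the other 29 genes include it.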

How the data were processed

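The authors made Smart-seq HT libraries, aligned reads to GRCm38.91 with Hisat2 per the paper (the submitters' processing notes name TopHat2 2.0.6 and CASAVA 1.8) and deposited raw counts per Ensembl gene for each of the 6 pools, without normalization or pooling. The counting program and its rules on strand and on reads matching several genes are not given in the sources used here. Groups and replicate numbers came from the sample labels, and symbols matched 53274 of 53465 gene identifiers. Coordinates, exon lengths and transcripts came from GENCODE release M21 (GRCm38).

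Genes passing filterByExpr (minimum count 10) were tested with edgeR 4.0.16 (TMM scaling, functions glmQLFit and glmQLFTest) under R 4.3.3, without a covariate. The Benjamini-Hochberg adjustment took in each of the 11842 genes tested. The fit was tested on simulated data. Log2 CPM used a prior of 0.5 CPM and count ratios a prior of 0.5 counts. Single values were compared by exact permutation in scipy 1.17.1 under Python 3.11.15. The standard error is the log2 fold change divided by the square root of F. Shared sequence is the percent of a gene's 31-base transcript words found in other genes.

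The 8 genes and the pathway and marker lists were chosen with earlier results of these data known. By rule the text names these 8, each list's highest gene per kb, every listed gene with unadjusted p under 0.05, and the 3 profiles nearest to *Casp9*. The same comparison was rerun with limma-voom (limma 3.58.1), with DESeq2 1.42.0, with the likelihood ratio test in edgeR, with 2 other scalings, with 2 other filters, with a replicate block, and without each pool in turn. Other members of the lists named in the text were chosen after their values were seen, and some listed genes are not reported here.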

Additional observations from a re-analysis of the deposited data

How the results depend on the processing

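The log2 fold change of *Casp9* was negative in every fit that could test it, from -2.43 to -1.29 when a pool was left out and from -1.86 to -1.64 under 7 other settings. No fit gave an adjusted p under 0.05 for any of the 8 genes, and for *Casp9* the adjusted p ran from 0.329 to 1.00 over the alternatives, with none given by DESeq2 for *Casp9* and *Casp2*. Requiring 10 counts in every pool removed *Casp9* and *Casp2* from the test and left 0 of the 8 genes with an unadjusted p under 0.05, against 1 to 2 when a pool was left out. *Apaf1* turned to -0.044 without quercetin replicate 2 (range -0.044 to 0.44), and *Casp6* to -0.29 without control replicate 3 (range -0.29 to 0.30 in the 4 such fits where it passed the filter). The cause was not tested. Left-out pools moved *Casp2* between 0.40 and 2.66, *Cycs* between 0.11 and 0.38, *Diablo* between 0.051 and 0.34, *Xiap* between -0.36 and -0.15 and *Casp8* between -0.19 and -0.019. The *Casp9* to *Apaf1* log2 ratio differed by -2.40 to -1.66 and the *Casp9* to *Xiap* ratio by -2.10 to -1.20.

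Genes past both criteria numbered 12 in DESeq2, 16 in the likelihood ratio test, 3 with every gene of at least 1 count, and 0 to 7 with a pool left out. Genes with an unadjusted p under 0.05 numbered 780 with every gene of at least 1 count, and between 241 (without control replicate 2) and 1563 (without quercetin replicate 3) with a pool left out. Pathway genes with an unadjusted p under 0.05 numbered 2 with limma-voom, with RLE scaling (*Birc3* and *Cse1l* in both) and with every gene of at least 1 count (*Birc3* and *Fas*), and 1 to 3 with a pool left out. Library size only moved the median log2 fold change of all genes by -0.085.

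Same-numbered pools deviated from their group means with correlations of 0.305, 0.0923 and -0.0313 across genes. The first, between the pools numbered 1, was the largest of any control with any quercetin pool. Control replicate 2 correlated best with quercetin replicate 3 (0.187). Deviations from a group mean depend on each other, so these correlations cannot decide whether the pools were paired. A pairing is not given in the sources used here, so the main test used none. With the replicate block the log2 fold change of *Casp9* was -1.79 (unadjusted p = 0.00468, adjusted p = 0.906 in edgeR's quasi-likelihood test), with 0 genes past both criteria. The block changed no call among the 8 genes, but it moved *Casp2* from 0.83 to 1.24. Its standard error went from 0.80 to 0.56 (unadjusted p = 0.0614 in edgeR's quasi-likelihood test with the block). *Casp6* had between 3 and 12 counts in a pool, under the filter, which limits the precision of its fold change.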
